A study of Homo sapiens with 33 samples.

Results

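Glucocorticoids are steroid drugs given to nearly every patient with acute lymphoblastic leukaemia (ALL), and the transcriptional response of a B-cell precursor ALL line to one of them, dexamethasone, is described here across all genes. The samples were picked out by their titles, with earlier results of these data known. They are 6 libraries of 33 in the series. Of these, 3 are from parental Nalm6 cells given 100 nM dexamethasone for 24 h. The other 3 are from untreated parental Nalm6 cells that belong to the dexamethasone set. Nalm6 is an established B-cell precursor ALL line, and none of these 6 libraries carries the TLE1 edit made in other cells of the series. Per the labels' protocols the cells grew in RPMI-1640 with serum treated with charcoal, a step that strips steroid hormones, and total RNA was sequenced. One line limits the comparison as a model, and the labels name no vehicle for the untreated cells. The design text speaks of independent experiments for other arms of the series and not for this one, so the p-values measure the spread between these libraries, which may be technical.

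The glucocorticoid receptor, encoded by NR3C1, sits in the cytosol with heat shock chaperones until a steroid binds it. It then enters the nucleus, binds DNA at paired half-sites or tethers to other transcription factors, and switches genes on and off. In lymphoid cells the receptor is known for growth arrest and for a mitochondrial death programme run by the BCL2 family, in which BIM (BCL2L11) and BMF oppose BCL2.

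Column 4 of the deposited files, the strand-specific column that holds the gene reads here, summed to 32501109 to 45427396 gene counts in the untreated libraries and 40643909 to 43228009 under dexamethasone. Levels are counts per 1000000 gene counts (CPM). A gene at 0 in the shallowest untreated library has an upper limit of 3 counts, or 0.0923 CPM, a limit that covers counting error only. Markers matched the labelled cell type: all 11 B-cell precursor markers measured stood at 1 CPM or more in each of the 6 libraries, with summed levels of 5357, 5382 and 5397 CPM untreated and 5062, 5144 and 5021 CPM under dexamethasone. Erythroid markers summed to at most 0.115 CPM in any library, NK cell markers to at most 5.81 CPM and myeloid markers to at most 7.17 CPM. Plasma cell markers were not low. They summed to 1304 to 1421 CPM, most of it from XBP1, IRF4 and MZB1. T-cell markers are given below.

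Untreated replicate 1 stood apart from the other libraries. Over genes, its counts differed from those of untreated replicates 2 and 3 with chi-square values per degree of freedom of 10.8 and 18.6, against 3.03 between those 2 replicates and 2.50 to 4.30 among the dexamethasone libraries. Of 389 genes at 10 CPM or more in untreated CEM cells (a T-cell ALL line of the same series) and at most 0.1 CPM in a separate set of untreated Nalm6 libraries, 284 had a count in untreated replicate 1. In untreated replicates 2 and 3, 90 and 106 of them did, and under dexamethasone 123, 122 and 116. Their summed level in untreated replicate 1 was 0.107% of that in CEM, against 0.0313% and 0.0312% in the other untreated libraries. Under dexamethasone the sum was 0.132%, 0.131% and 0.130%, and 5 genes named after their values were seen, TDRD9, PSTPIP1, SLA, CMTM3 and MLC1, held much of it: the other genes summed to 13.1, 11.8 and 12 CPM there, against 24.7, 7.08 and 7.03 CPM in untreated replicates 1, 2 and 3. Of 26 T-cell markers, 24 had a count in untreated replicate 1, 14 and 15 in untreated replicates 2 and 3, and 14 to 16 under dexamethasone. CD3D, CD3E, CD3G, CD5, CD7 and TRAT1 had counts in untreated replicate 1 (10 for CD3G, the highest of them) and 0 in the other 5 libraries. The summed level of the T-cell markers ran from 142 to 154 CPM over all 6 libraries. LCK, ZAP70 and PTCRA held most of it in each library.

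**Figure D1:**
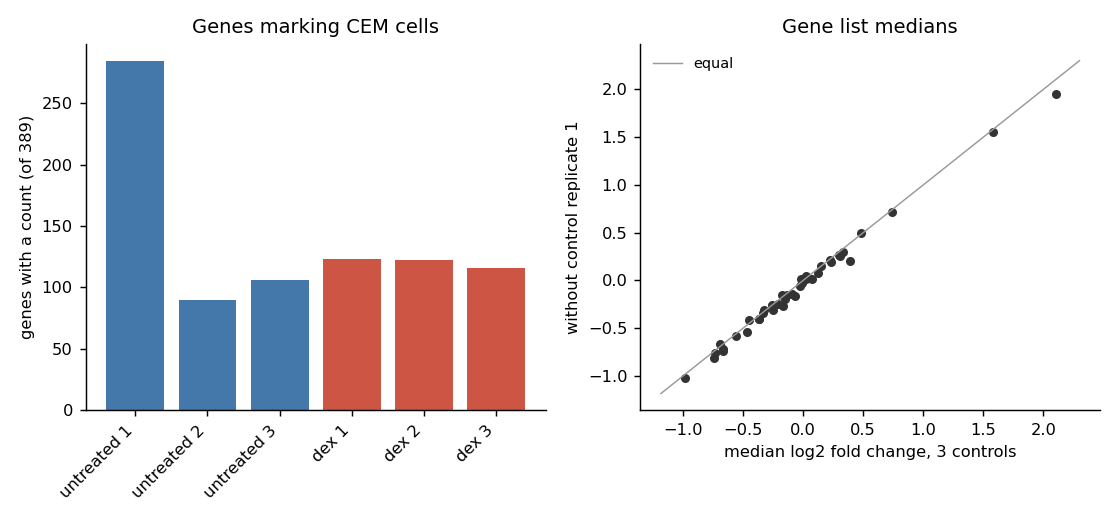
Left, the number of 389 genes marking CEM cells that had at least 1 count in each of the 6 libraries (bars; untreated in blue, dexamethasone in red). Untreated replicate 1 had 284 and the other libraries 90 to 123. Right, the median log2 fold change of each gene list with all 3 untreated libraries (horizontal axis) and without untreated replicate 1 (vertical axis), with a line of equality that the points lie along.

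Dexamethasone moved a large share of the transcriptome. Of 17217 genes tested, 10412 (60.5%) were called at an edgeR adjusted p under 0.05, of which 5208 rose (30.2% of genes tested) and 5204 fell (30.2%). The numbers that rose and fell were nearly equal, but the large changes were mostly rises. At least 2-fold changes were called in 1931 genes (11.2%), 1369 of them higher (7.95%) and 562 lower (3.26%). At a log2 fold change of 3 or more in size there were 300 rises and 35 falls, and at 5 or more 121 rises and 2 falls. In 11268 genes (65.4%) the treated and untreated libraries did not overlap. The median size of a called change was 0.48 on the log2 scale, and the median over all genes tested was 0.02. Because CPM values are shares of a library, a fall says that a transcript took a smaller share, and in these bulk libraries fewer cells with a transcript and less of it per cell cannot be told apart.

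**Figure D2:**
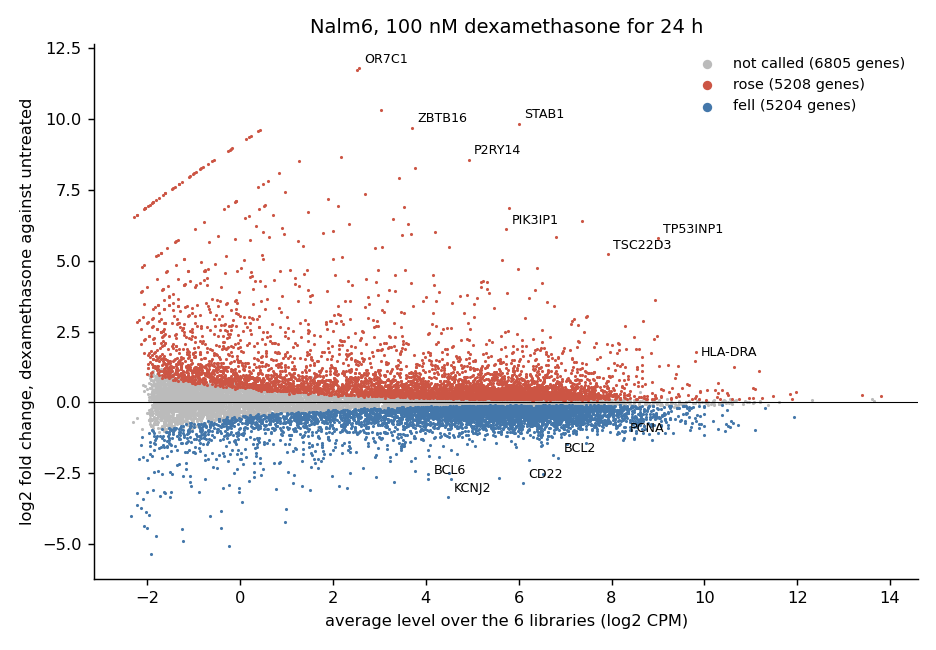
Each point is 1 of 17217 genes, with its average level over the 6 libraries in log2 CPM (horizontal axis) and its log2 fold change under dexamethasone (vertical axis). Red points (5208) rose, blue points (5204) fell and grey points were not called. The largest rises reach far above 5 and the falls of well-expressed genes stop near KCNJ2 at -3.34. The straight lines of points at the left are genes with 0 counts in all untreated libraries, whose fitted values depend on the prior count.

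The largest rises were of genes that untreated Nalm6 cells barely transcribed. STAB1 (ENSG00000010327.10_1), a scavenger receptor of endothelial cells and macrophages, stood at 0.0881, 0.215 and 0.115 CPM untreated and 128, 125 and 130 CPM under dexamethasone, which is a change on the log2 scale of 9.84 ± 0.10 (SE, n = 3 per group; edgeR adjusted p = 4.18e-17). ZBTB16, a zinc finger repressor, went from 2, 0 and 1 counts to 1111, 1049 and 1022 counts, which is 24.3 to 25.8 CPM. P2RY14, a receptor for UDP-sugars, went from 0.0660, 0.215 and 0.202 CPM to 59.4, 60.5 and 59.9 CPM. The groups did not come near each other in any of these genes. LDB3, a muscle Z-disc protein, rose by 8.28 ± 0.17 on the log2 scale, and TACC2, a centrosomal coiled-coil protein, by 7.92 ± 0.16. OLAH, a thioesterase of fatty acid synthesis, PGC, which encodes the stomach proenzyme pepsinogen C, and LOXL4, a lysyl oxidase of the extracellular matrix, were at 0 to 3 counts in every untreated library and reached 8.09, 8.54 and 15.8 CPM. In the unstranded column the log2 fold changes of OLAH and LOXL4 were 4.47 and 3.76, against 6.92 and 10.33. The pseudogenes GOLGA6GP and BNIP3P41 rose to 12.3 and 22.3 CPM, and their values are uncertain because near-identical copies can share reads.

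The 2 steepest rises were of the olfactory receptor genes OR7C1 and OR7A5, which had 0 counts in all 3 untreated libraries. OR7C1 had 516, 414 and 487 counts under dexamethasone, so it was at least 122-fold higher than the limit of 3 counts in the shallowest untreated library. OR7A5 had 494, 432 and 448 counts and was at least 118-fold higher. In RefSeq the 2 genes lie on the same strand of chromosome 19, share a 5′ start and overlap, so reads of 1 gene and the other cannot be fully told apart. Their shared promoter is shown because it holds a loose form of the receptor's binding element, in capitals (GNACANNNTGTNC, searched on both strands), 168 bases before the start. It is the region chr19:14835186-14835435, minus strand, of GRCh38.p14, and the other sequence is that of TXNIP, chr1:145996580-145996829, minus strand, where the element begins 175 bases before the start.

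OR7C1 and OR7A5: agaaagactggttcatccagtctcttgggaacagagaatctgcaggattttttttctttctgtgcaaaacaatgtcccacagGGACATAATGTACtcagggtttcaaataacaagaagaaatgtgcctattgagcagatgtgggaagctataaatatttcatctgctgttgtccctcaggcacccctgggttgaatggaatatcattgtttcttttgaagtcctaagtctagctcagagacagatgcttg

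TXNIP: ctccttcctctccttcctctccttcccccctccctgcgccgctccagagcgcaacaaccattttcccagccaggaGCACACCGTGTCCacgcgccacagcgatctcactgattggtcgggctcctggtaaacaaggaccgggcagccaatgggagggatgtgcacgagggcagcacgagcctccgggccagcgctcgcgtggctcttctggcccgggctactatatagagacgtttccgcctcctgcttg

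Both are the 250 bases before the start, from RefSeq. A promoter record (250 bases before to 50 after the start) was found for 10854 of the 17217 genes tested, and the first record of each gene was used. The loose element was in 24 of these promoters (0.221%), in 7 of the 737 promoters of genes that rose at least 2-fold (0.95%), in 4 of the 155 of genes with a log2 rise of 3 or more (2.58%), and in 0 of the 348 of genes that fell at least 2-fold. OR7C1 and OR7A5 count as 2 of the 24, 2 of the 7 and 2 of the 4, although they are 1 promoter. The others of the 7 are TXNIP, GIMAP8 (3.26), LINC00689 (2.96), CHST7 (2.35) and MAP3K6 (1.50). They are named because their promoters hold the element, with log2 fold changes in parentheses. The full element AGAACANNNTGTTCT was in 0 of the tested genes' promoters and in 1 of 27305 in the table. The E-box CACGTG, a motif bound by MYC and its partners, was in 10% of tested promoters, in 7.06% of those of genes that rose at least 2-fold and in 8.62% of those that fell at least 2-fold. These are counts of letters within short windows and no test was made of them.

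Genes known as glucocorticoid targets in other cells were next examined as a list. For this and every later list, the shares over all genes tested were 30.2% called higher and 30.2% called lower. At least 2-fold they were 7.95% and 3.26%. Of 25 tested, 22 rose, 2 fell and 1 was not called, 19 of the rises being at least 2-fold, and the list's median log2 fold change was 2.10. TSC22D3 (ENSG00000157514.17_1), which encodes the leucine zipper protein GILZ, was at 12.2, 12.3 and 12.5 CPM untreated and 468, 474 and 481 CPM under dexamethasone, which is a change on the log2 scale of 5.23 ± 0.05 (edgeR adjusted p = 8.51e-18). FKBP5, a chaperone that lowers the receptor's affinity for hormone, was at 68.3, 90.2 and 91.8 CPM untreated and 548, 558 and 535 CPM treated (2.68 ± 0.08 on the log2 scale). TXNIP, which restrains thioredoxin and glucose uptake, went from 78.3, 70.9 and 67.6 CPM to 881, 945 and 929 CPM. ISG20, an RNA exonuclease, went from 5.31, 5.20 and 4.87 CPM to 76.7, 79.9 and 71.8 CPM. All of these groups were apart, untreated replicate 1 included.

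Further rises in the list were SLA, an adaptor that dampens antigen receptor signals (5.94), SOCS1, a brake on cytokine signalling (4.67), the anti-proliferative BTG1 (2.10), the transcription factors KLF13 (1.97) and KLF9 (1.84), the clock gene PER1 (1.92), and DDIT4, an inhibitor of mTOR (1.84), all as log2 fold changes. PFKFB2, a regulator of glycolysis, had 0 counts untreated and 0.812 to 1.18 CPM treated, at least 10.4-fold higher. The members that moved the other way were DUSP1, a phosphatase of MAP kinases that glucocorticoids raise in many tissues, and ERRFI1, an inhibitor of the EGF receptor. DUSP1 was at 185, 190 and 193 CPM untreated and 143, 142 and 141 CPM treated (-0.45 ± 0.04, edgeR adjusted p = 6.8e-08). ERRFI1 fell by 0.51 ± 0.11 on the log2 scale. The metallothionein MT1X did not pass the test (-0.03 ± 0.04), while its relative MT2A rose (0.74).

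The receptor's own transcript rose. NR3C1 (ENSG00000113580.15_1) was at 233, 216 and 207 CPM untreated and 540, 546 and 528 CPM treated, which is a change on the log2 scale of 1.26 ± 0.05 (edgeR adjusted p = 2.38e-11). Of 16 tested genes for the receptor, its chaperones and its cofactors, 5 rose and 8 fell, with a median of -0.17. The falls were mainly of chaperones of the receptor complex. HSP90AB1, the constitutive HSP90, went from 1852, 1969 and 1935 CPM to 1185, 1214 and 1194 CPM (-0.71 ± 0.04), and STIP1, which links HSP70 to HSP90, fell by 0.70 ± 0.04 on the log2 scale. HSP90AA1 was at 506, 643 and 671 CPM untreated and 423, 447 and 450 CPM treated, with untreated replicate 1 the lowest of its group. Of the cofactors, NCOA1 rose (0.59).

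**Figure D3:**
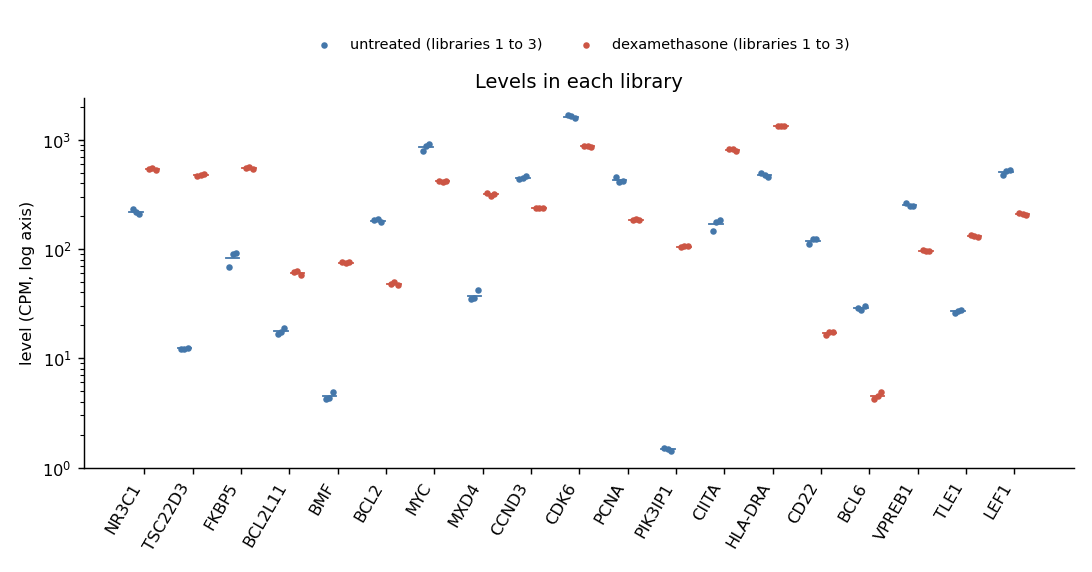
Levels of 19 genes in each library, in CPM on a log axis, with untreated libraries in blue and dexamethasone libraries in red, each set in the order of replicates 1 to 3, and a line at each mean. In all 19 genes the 3 treated points lie apart from the 3 untreated points. Over all genes tested the groups did not overlap in 65.4%, and the 19 were picked from genes named in the text. TSC22D3 and PIK3IP1 show wide gaps and CDK6 a narrow one.

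In the BCL2 family the changes of at least 2-fold were in few members. BMF (ENSG00000104081.14_1), a death-promoting BH3-only protein, was at 4.27, 4.37 and 4.96 CPM untreated and 75.3, 74.1 and 75.9 CPM treated, which is a change on the log2 scale of 4.02 ± 0.06 (edgeR adjusted p = 1.37e-15). BCL2L11 (ENSG00000153094.24_1), which encodes BIM, was at 16.8, 17.5 and 18.9 CPM untreated and 61.7, 62.6 and 57.6 CPM treated (1.74 ± 0.05). The survival gene BCL2 (ENSG00000171791.14_1) went the other way, from 183, 187 and 175 CPM to 47.4, 49.4 and 47.2 CPM (-1.96 ± 0.04, edgeR adjusted p = 8.42e-14). In each of these 3 genes the groups were far apart.

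Other members moved less or opposite to those. Of 10 death-promoting genes tested 3 rose and 4 fell, with a median of -0.15, or -0.09 in the unstranded column. PMAIP1, which encodes NOXA, was at 75.8, 67.9 and 61.9 CPM untreated and 84.5, 84.7 and 91.5 CPM treated (0.30 ± 0.07). HRK fell by 1.50 ± 0.08 on the log2 scale, BID by 0.66 ± 0.04 and BAX by 0.32 ± 0.05. Of the 4 survival genes tested, BCL2 fell while BCL2L1 (0.34), MCL1 (0.26) and BCL2L2 (0.18) rose. Among 13 caspases and their regulators 7 rose and 2 fell, with a median of 0.15. The rises at least 2-fold in size were of inhibitors: BIRC3, an inhibitor of apoptosis, went from 0.352, 0.277 and 0.259 CPM to 5.07, 4.92 and 4.75 CPM, and CFLAR, which blocks caspase-8, rose by 1.12 ± 0.05 on the log2 scale.

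Genes of the cell cycle fell together, those of S phase by the most. Of 31 DNA replication genes tested, 29 fell, 15 of them at least 2-fold, and the median was -0.99. PCNA, the sliding clamp of the replicative polymerases, was at 454, 413 and 419 CPM untreated and 182, 187 and 184 CPM treated (-1.25 ± 0.05, edgeR adjusted p = 1.82e-11). MCM4, a subunit of the replicative helicase, went from 413, 449 and 439 CPM to 176, 177 and 176 CPM. GINS2, of the helicase's GINS complex, fell by 1.48 ± 0.04 on the log2 scale, and CDC6 and ORC1, which load the helicase, by 1.23 and 1.21. The 1 member that rose was POLA2, the second subunit of DNA polymerase alpha, from 21.8, 22.1 and 20.7 CPM to 36.1, 38.2 and 33.9 CPM (0.70 ± 0.06), with no overlap between the groups.

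Of 12 genes of the G1 machinery tested, 9 fell and 1 rose, with a median of -0.73. CDK6, the kinase that pairs with D-type cyclins and 1 of the 8 genes with the largest loss in CPM, went from 1674, 1635 and 1566 CPM to 876, 880 and 862 CPM (-0.93 ± 0.04, edgeR adjusted p = 1.07e-10). CCND3, its cyclin partner in lymphoid cells, went from 438, 445 and 464 CPM to 235, 237 and 236 CPM (-0.96 ± 0.04). CDC25A, a phosphatase that activates CDKs, fell by 1.20 and SKP2, which marks p27 for destruction, by 1.11 on the log2 scale. E2F3 rose (0.27). Of the inhibitors, CDKN1B, which encodes p27, rose from a mean of 63.0 to 93.0 CPM (0.53 ± 0.04), but CDKN1A, which encodes p21, fell by 1.07 ± 0.04 and CDKN1C, which encodes p57, by 1.69 ± 0.11. In total 3 of the 8 inhibitors and pocket proteins tested rose and 3 fell. Mitotic genes fell by less: 25 of 27 fell and 0 rose, with a median of -0.37, and MAD2L1, of the spindle checkpoint, was the only one to fall at least 2-fold, from 127, 107 and 105 CPM to 56.1, 53.8 and 57.7 CPM.

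The growth regulator MYC fell as well. MYC (ENSG00000136997.21_1) was at 784, 880 and 909 CPM untreated and 422, 411 and 415 CPM treated, which is a change on the log2 scale of -1.08 ± 0.05 (edgeR adjusted p = 1.09e-10). MXD4, a MAX partner that represses the sites MYC activates, rose from 34.7, 35.5 and 41.7 CPM to 327, 305 and 319 CPM (3.05 ± 0.06), and MXD3 (0.57) and MXD1 (0.50) rose as well. MLXIP, another member of the list, rose from a mean of 165 to 326 CPM (0.94 ± 0.05). Of the 10 genes of the network tested 4 rose and 5 fell. The falls besides MYC were of MNT (-0.356), MXI1 (-0.315), MGA (-0.208) and MAX (-0.115).

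Ribosome assembly and ribosome structure parted. Of 27 ribosome biogenesis genes 26 fell and 0 rose, with a median of -0.67: BYSL, of small-subunit assembly, fell by 1.11 ± 0.05 on the log2 scale, NOLC1, a nucleolar scaffold, by 0.86, DDX21, a nucleolar helicase, by 0.84 and NPM1, the nucleolar chaperone nucleophosmin, by 0.82. The structural proteins of the cytosolic ribosome had a median of -0.02, with 7 of 46 called higher, 4 lower and 35 not called, and their values lay between -0.21 (RPL35) and 0.36 (RPS16, not called). RPS16 was at 181 CPM in untreated replicate 1 against 405 and 430 CPM in the other untreated libraries and 453, 441 and 436 CPM treated, so 1 library lay far below the other 5, and without it the value was 0.04. Without untreated replicate 1, 12 of these genes were called higher and 7 lower.

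All 26 nucleotide synthesis genes fell, 7 of them at least 2-fold, with a median of -0.74. PAICS, of purine synthesis, went from 491, 508 and 502 CPM to 212, 221 and 216 CPM (-1.24 ± 0.04, edgeR adjusted p = 1.87e-12). RRM2, the inducible subunit of ribonucleotide reductase, went from 235, 252 and 247 CPM to 110, 110 and 105 CPM (-1.21 ± 0.04). PRPS2 fell by 1.26 and DHODH, of pyrimidine synthesis, by 1.17 on the log2 scale. Genes that handle antimetabolite drugs used in ALL were examined beside this group. ABCG2, a drug exporter, went from 12.1, 11.8 and 11.9 CPM to 3.24, 3.52 and 3.32 CPM (-1.87 ± 0.08), and SLC19A1, the folate carrier that takes up methotrexate, fell by 0.67. FPGS, which retains folates and methotrexate in the cell, rose (0.19 ± 0.04). In the list of 13 such genes tested 9 fell and 3 rose, and TPMT (0.17, adjusted p = 0.011) and NT5C2 (0.11, adjusted p = 0.0324) lost their calls when 1 of several libraries was left out, with adjusted p up to 0.116 and 0.229. TPMT was at 0.12 without untreated replicate 2. NT5C2 also lost its call with DESeq2 (adjusted p = 0.0998), the replicate number as a block (0.0599 in edgeR), no filter on low counts (0.0598) and the unstranded column (0.0686).

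**Figure D4:**
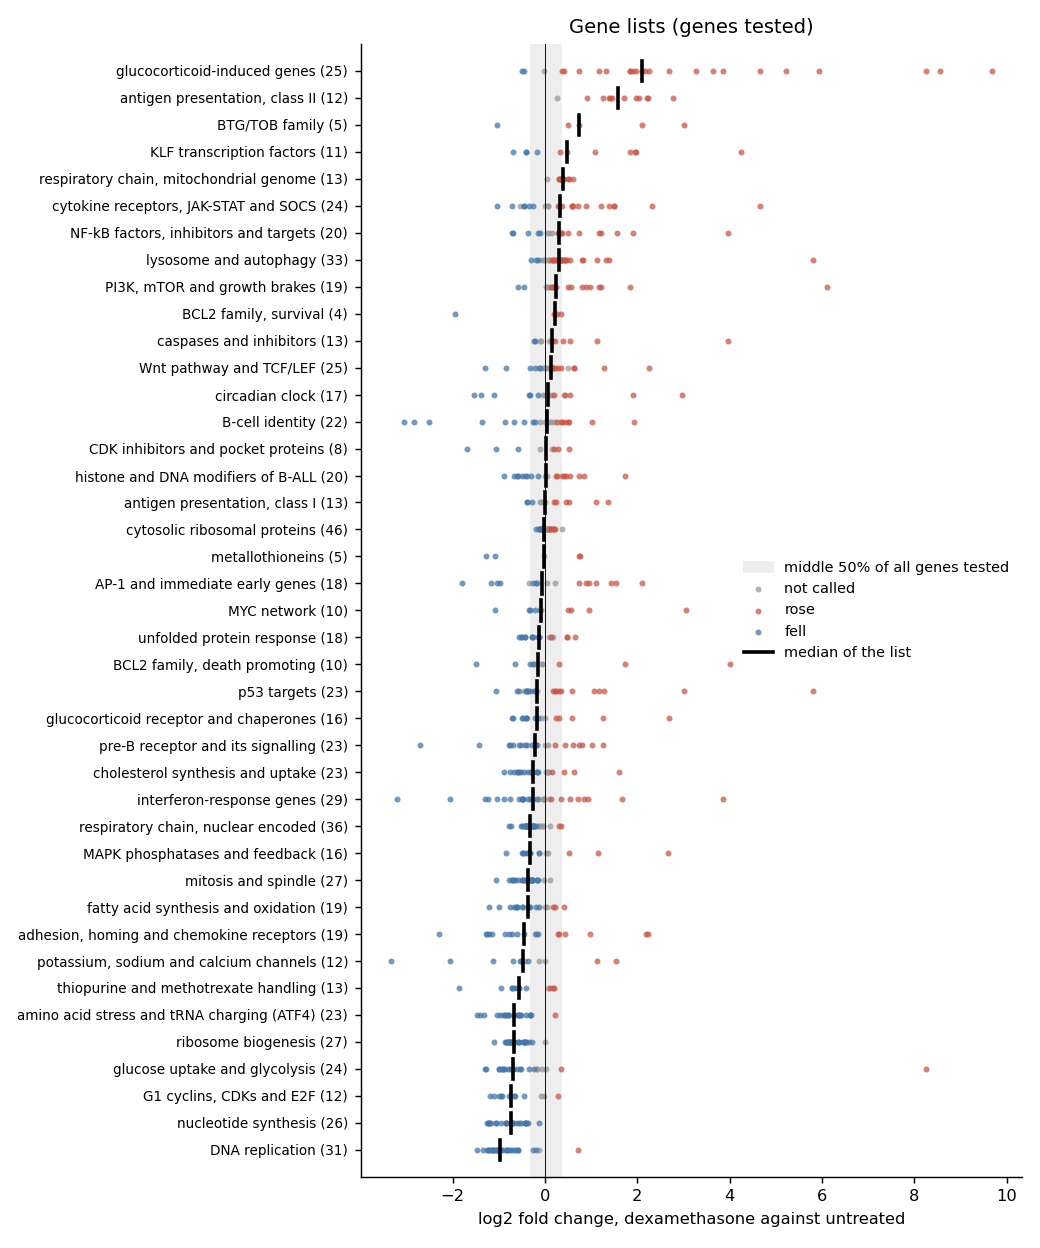
Log2 fold changes of the members of 41 gene lists (points; red rose, blue fell, grey not called), sorted by the list's median (black bar), with the number of genes tested in parentheses and the middle 50% of all genes tested shaded. Genes known as glucocorticoid targets have the highest median at 2.10 and DNA replication genes the lowest at -0.99.

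Central metabolism fell in most but not all branches. Of 24 glycolysis genes tested 18 fell and 2 rose, with a median of -0.69. ENO1, which encodes enolase, went from 1837, 1794 and 1824 CPM to 921, 974 and 919 CPM (-0.99 ± 0.04, edgeR adjusted p = 3.88e-11), and GAPDH from 4501, 4580 and 4474 CPM to 3258, 3333 and 3162 CPM (-0.51 ± 0.04). PFKM fell by 0.93 while another phosphofructokinase gene, PFKL, rose by 0.34. The other rise in the list was of PFKFB2. Nuclear genes of the respiratory chain fell in 28 of 36 cases and rose in 2, with a median of -0.33, CYCS, which encodes cytochrome c, falling by 0.74 ± 0.06. The 13 genes of the mitochondrial genome did not follow: 11 rose and 0 fell, with a median of 0.39. MT-CO1 was at 2904, 3720 and 3904 CPM untreated and 4612, 4630 and 4564 CPM treated (0.36 ± 0.07, and 0.23 without untreated replicate 1). Untreated replicate 1 was the lowest of all 6 libraries for each of the 8 mitochondrial genes in the named set, which was picked by size of change. Outside that set MT-ND6 was at 28.35 CPM in untreated replicate 1, against 24.52 and 24.06 CPM in untreated replicates 2 and 3. It was not called (0.04). Without untreated replicate 1 the list's median was 0.20, with 11 rises again. MT-ND1 and MT-ATP6 were not called by DESeq2 (adjusted p = 0.112 and 0.0912), nor, with MT-CYB and MT-ND3, under robust moderation in edgeR. MALAT1, a nuclear RNA with the largest gain in CPM, was also lowest in that library, at 1174 CPM against 1530 and 1639 CPM untreated and 3155, 3413 and 3080 CPM treated (1.12 ± 0.09).

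Most lipid synthesis genes fell, with single enzymes going the other way. Of 23 cholesterol genes 15 fell and 4 rose, with a median of -0.26. DHCR7, of the last step to cholesterol, fell by 0.89 and HMGCS1, near the start of the pathway, by 0.76 on the log2 scale. LSS, lanosterol synthase, which closes the sterol rings, rose from 186, 201 and 201 CPM to 613, 621 and 598 CPM (1.60 ± 0.04, edgeR adjusted p = 2.29e-13), and IDI1, an upstream isomerase, rose (0.62). Of 19 fatty acid genes 14 fell and 3 rose, with a median of -0.37. The falls were led by the synthetic enzymes ELOVL6 (-1.21), SCD (-0.99) and FADS1 (-0.76), and the rises included the oxidation enzymes HADHA (0.21) and ACADVL (0.18).

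Genes of the ATF4 amino acid response fell in 22 of 23 cases, with a median of -0.67. PHGDH, the first enzyme of serine synthesis, went from 176, 195 and 204 CPM to 70.5, 71.5 and 69.8 CPM (-1.47 ± 0.05, edgeR adjusted p = 4.8e-12). CHAC1, which degrades glutathione, fell by 1.41, SLC7A11, the cystine transporter, by 1.32, and TRIB3 by 1.05 on the log2 scale. The exception was SLC38A2, a neutral amino acid transporter, which rose (0.23 ± 0.04). The unfolded protein response had no common direction, with 11 of 18 genes lower and 4 higher and values from -0.57 (EDEM1) to 0.66 (CRELD2).

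Brakes on growth signalling rose in 14 of 19 genes and fell in 2, with a median of 0.23. PIK3IP1 (ENSG00000100100.13_1), a membrane protein that binds and inhibits PI3 kinase, went from 1.50, 1.48 and 1.41 CPM to 103, 105 and 106 CPM (6.12 ± 0.06, edgeR adjusted p = 4.18e-17). KLHL24 rose by 1.21, SESN1, an inhibitor of mTORC1, by 1.17, DEPTOR by 0.97, SESN3 by 0.89 and INPP5D, the phosphatase SHIP1, by 0.81. PIK3R1, the regulatory subunit of PI3 kinase, fell by 0.57 and PHLPP1, a phosphatase of AKT, by 0.46 on the log2 scale. BTG2, an anti-proliferative partner of the deadenylase complex, went from 38.5, 37.6 and 38 CPM to 309, 318 and 313 CPM (3.00 ± 0.04), and 4 of the 5 BTG and TOB genes tested rose, while BTG3 fell by 1.04.

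In the lysosome and autophagy list 22 of 33 genes rose and 3 fell, with a median of 0.30. TP53INP1, which takes part in autophagy and in p53 responses, had the list's largest change and was 1 of the 8 genes with the largest gain in CPM. Its level went from 18.3, 17.6 and 17.4 CPM to 1011, 1021 and 1023 CPM (5.80 ± 0.05, edgeR adjusted p = 7.11e-18). MAP1LC3B, whose protein coats autophagosomes, went from 20.3, 29 and 30.2 CPM to 69.9, 74.0 and 66.6 CPM. CTSB, a lysosomal protease, rose by 1.32, TFEB, a transcription factor for lysosomal genes, by 1.12 and the autophagy kinase ULK1 by 0.80. The p53 target list had no common direction. There 11 of 23 genes rose, led by TP53INP1 and BTG2, and 9 fell, led by CDKN1A and followed by MDM2 (-0.60) and DDB2 (-0.56). The median was -0.17 with all libraries, -0.27 without untreated replicate 1, -0.09 without untreated replicate 3 and -0.02 in the unstranded column.

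Genes of B-cell identity changed in both directions, 8 of 22 higher and 9 lower, and the largest changes were falls. CD22 (ENSG00000012124.17_1), an inhibitory co-receptor and the target of an antibody drug used in ALL, was at 111, 122 and 123 CPM untreated and 16.4, 17.2 and 17.2 CPM treated, which is a change on the log2 scale of -2.84 ± 0.05 (edgeR adjusted p = 1.1e-14). ID3, which blocks E proteins, went from 146, 158 and 160 CPM to 28.1, 26.7 and 28.6 CPM (-2.51 ± 0.05), and SPIB, an ETS factor, fell by 3.04 ± 0.17 from 2.95, 3.11 and 3.23 CPM, and by 1.94 in the unstranded column. CD38 fell by 1.37, MME, which encodes CD10, by 0.86 and PAX5, the factor that holds B-cell identity, by 0.68. CD72, an inhibitory co-receptor, rose from 35.8, 35.8 and 37.2 CPM to 139, 147 and 140 CPM (1.93 ± 0.04). TCF3 (0.53), RAG1 (0.34) and RAG2 (0.36), the last 2 being the recombinase of antigen receptor genes, rose.

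The pre-B receptor list had 14 of 23 genes lower and 7 higher, with a median of -0.21. BCL6, a repressor that sustains pre-B cells, went from 28.8, 27.8 and 29.9 CPM to 4.21, 4.55 and 4.87 CPM (-2.70 ± 0.07, edgeR adjusted p = 5.6e-13). VPREB1, a chain of the surrogate light chain, went from 263, 248 and 246 CPM to 98.7, 95 and 95.5 CPM (-1.42 ± 0.04), whereas IGLL1, its partner, fell by only 0.18. The linker BLNK fell by 0.77. BLK, a SRC-family kinase, rose by 1.27, the signalling chains CD79A and CD79B by 1.02 and 0.44, and IRF4 by 0.73. Among plasma cell markers PRDM1, which encodes BLIMP-1, rose from 0.704, 0.769 and 0.807 CPM to 9.25, 9.84 and 8.52 CPM (3.56 ± 0.12), while JCHAIN, the joining chain of polymeric antibodies, went from 10.6, 8.03 and 7.78 CPM to 0.763, 1.18 and 1.42 CPM (-3.02 ± 0.18).

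Cytokine signalling genes rose in 14 of 24 cases and fell in 6, with a median of 0.33. SOCS2, a feedback inhibitor of JAK-STAT signals, went from 121, 114 and 116 CPM to 605, 602 and 589 CPM (2.31 ± 0.04, edgeR adjusted p = 1.06e-14), and CISH, of the same family, rose by 1.40. IL6ST, the shared chain of the IL-6 receptor family, and TNFRSF13C, the BAFF receptor, both rose by 1.50. IL7R, a cytokine receptor gene, went from 402, 392 and 396 CPM to 314, 326 and 315 CPM (-0.35 ± 0.04), and IL21R fell by 1.03.

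Antigen presentation through class II, the arm that shows peptides to CD4 T cells, rose in 11 of 12 genes, 10 of them at least 2-fold, with a median of 1.58. CIITA (ENSG00000179583.20_1), the master activator of class II genes, was at 145, 176 and 182 CPM untreated and 823, 819 and 785 CPM treated, which is a change on the log2 scale of 2.24 ± 0.06 (edgeR adjusted p = 1.26e-12). HLA-DRA went from 494, 471 and 458 CPM to 1331, 1329 and 1329 CPM (1.45 ± 0.04), and CD74, the invariant chain, from 840, 950 and 977 CPM to 2250, 2289 and 2239 CPM (1.26 ± 0.05). HLA-DQA1 had the largest rise of the list, 2.77 ± 0.08, and the peptide loaders HLA-DMB and HLA-DMA rose by 2.20 and 1.98. Class I genes did not rise as a group, with 6 of 13 higher, 3 lower and a median of -0.01. HLA-F (1.37) and the peptide transporter gene TAP1 (1.11) rose at least 2-fold, and NLRC5, the class I counterpart of CIITA, fell by 0.39 ± 0.04. HLA genes are polymorphic and alike, so their levels depend on how reads could be assigned.

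Inflammatory and immediate early genes moved in both directions. Of 29 interferon-response genes 16 fell and 8 rose, with a median of -0.26. IFI44 (-2.06), OAS3 (-1.31) and IFIT1 (-1.24) fell, and MX1, an antiviral GTPase, rose from 5.79, 6.52 and 6.31 CPM to 20.7, 19.1 and 20.3 CPM (1.66 ± 0.07). Of 20 NF-kB genes 12 rose and 5 fell, with a median of 0.31. The rises included the inhibitors NFKBIA, from 54.7, 50.7 and 52.6 CPM to 161, 160 and 157 CPM (1.56 ± 0.04), and NFKBIZ (1.90 ± 0.06), and the targets BIRC3 and ICAM1 (1.22). CD83 fell by 0.71. Among 18 AP-1 and immediate early genes 7 rose and 6 fell. FOS rose from 0.682, 0.769 and 0.980 CPM to 3.10, 3.52 and 3.96 CPM (2.10 ± 0.17) and JUN by 1.11, while BATF3 fell by 1.79 and NR4A1 by 1.03.

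Of 16 MAP kinase phosphatase and feedback genes 10 fell and 3 rose, with a median of -0.34. DUSP10, which acts on p38 and JNK, rose from 3.10, 2.65 and 2.77 CPM to 19.3, 18.9 and 18.0 CPM (2.67 ± 0.08, edgeR adjusted p = 2.91e-12), and DUSP6, which acts on ERK, rose by 1.14 ± 0.04. DUSP1 and DUSP4 (-0.84) fell. DUSP5 rose (0.53, adjusted p = 0.0126) but was not called by DESeq2 (0.51, adjusted p = 0.0506) or without dexamethasone replicate 2 (0.34, edgeR adjusted p = 0.0783). Among KLF factors 7 of 11 rose and 4 fell, with a median of 0.48. KLF2, a factor of lymphocyte quiescence, went from 0.704, 0.646 and 0.778 CPM to 15.0, 12.9 and 13.9 CPM (4.25 ± 0.12), and KLF6 rose by 1.95. In the circadian list 5 of 17 rose and 6 fell. PER1 was among the rises, and DBP, an output factor of the clock, fell by 1.11.

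The series asks about glucocorticoid and Wnt signalling together, so the Wnt list was examined in the dexamethasone set. Of 25 genes tested 10 rose and 5 fell, and over all genes tested 30.2% rose and 30.2% fell. The median was 0.12, but 0.08 without untreated replicate 1 and 0.07 without dexamethasone replicate 1. LEF1 (ENSG00000138795.10_1), a DNA-binding partner of beta-catenin, was at 473, 515 and 525 CPM untreated and 212, 210 and 206 CPM treated, which is a change on the log2 scale of -1.30 ± 0.04 (edgeR adjusted p = 3.26e-12). TLE1 (ENSG00000196781.16_1), a co-repressor that binds LEF1 and its relatives, was at 26.0, 27.2 and 27.9 CPM untreated and 134, 131 and 129 CPM treated (2.25 ± 0.04, edgeR adjusted p = 1.68e-14). GSK3B, the kinase that marks beta-catenin for destruction, rose from 38.3, 40.0 and 39.5 CPM to 95.8, 98.3 and 98.7 CPM (1.28 ± 0.04). AXIN2, a feedback target of the pathway, rose (0.63 ± 0.12) and ZNRF3, another, fell by 0.84 ± 0.09. TLE4 fell by 0.33. TCF7, a T-cell factor, had 27 counts in untreated replicate 1, 2 in each of the other untreated libraries, and 14, 9 and 15 under dexamethasone. It was not called with all libraries (0.12 ± 0.61, adjusted p = 0.884) and was called without untreated replicate 1 (2.23, adjusted p = 0.00312), the library that also held counts of CD3D, CD3E and CD3G.

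Surface and migration genes fell in 12 of 19 cases and rose in 6, with a median of -0.45, or -0.21 without genes enriched in CEM. ITGB7 (-2.30, and -1.01 in the unstranded column), CD44 (-1.29) and the sphingosine phosphate receptors S1PR1 (-1.26) and S1PR2 (-1.21) fell, all from levels of 5.69 CPM or less. RGS1, which quenches chemokine receptor signals, rose (2.23 ± 0.20) from 0.550, 0.400 and 0.346 CPM to 2.06, 2.26 and 2.11 CPM. Of 20 histone and DNA modifiers 9 rose and 9 fell, with a median of 0.02. DNMT3B, a de novo DNA methyltransferase, went from 25.9, 26.3 and 26.9 CPM to 88.9, 93.0 and 88.2 CPM (1.74 ± 0.04), whereas the maintenance methyltransferase DNMT1 fell by 0.61 and its partner UHRF1 by 0.67.

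Among the steepest falls of well-expressed genes was KCNJ2 (ENSG00000123700.5_1), an inward rectifier potassium channel, from 40.8, 42.5 and 39.9 CPM to 3.86, 4.16 and 4.46 CPM (-3.34 ± 0.07, edgeR adjusted p = 3.64e-14). HSH2D, an adaptor of lymphocyte signalling, fell by 2.72, CSMD1 by 2.79, CLEC2D, the ligand of an inhibitory NK receptor, by 2.65, CCM2L by 2.63, CNTN2 by 2.54, SPP1, which encodes osteopontin, by 2.51 and the glutamate transporter SLC1A3 by 2.48, all on the log2 scale. The 8 largest losses in CPM were, besides GAPDH, ENO1, NPM1 and CDK6, those of PTMA, from a mean of 2855 to 1484 CPM, the tubulin genes TUBB and TUBA1B, from 2135 to 1247 and from 1924 to 1075 CPM, and PRDX1, a peroxidase, from 1372 to 641 CPM. PXDN, a peroxidase of the extracellular matrix, was among the largest gains, from 382, 407 and 419 CPM to 1393, 1435 and 1395 CPM (1.77 ± 0.04).

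The series also holds parental Nalm6 cells given 5 µM prednisolone, another glucocorticoid, for 24 h (n = 3). They were compared with 3 other untreated Nalm6 libraries, whose titles name no drug. Chi-square values per degree of freedom between the prednisolone libraries were 4.51, 6.77 and 11.4. No library is shared with the dexamethasone comparison. Because the doses differ, the values are only set side by side and no difference between the drugs was tested. Under prednisolone 10231 of 18658 genes tested (54.8%) were called. TSC22D3 had a log2 fold change of 3.99 there and 5.23 under dexamethasone, FKBP5 1.67 and 2.68, BMF 4.11 and 4.02, BCL2L11 1.44 and 1.74, and BCL2 -1.37 and -1.96. NR3C1 had 1.18 and 1.26, and DUSP1, lower in both, -0.25 and -0.45. List medians under prednisolone and dexamethasone were 1.57 and 2.10 for known glucocorticoid targets, -0.77 and -0.99 for DNA replication, -0.65 and -0.74 for nucleotide synthesis, and 1.20 and 1.58 for class II genes. MT1X was called higher under prednisolone (0.67) and was not called under dexamethasone (-0.03). MT2A was called higher under dexamethasone (0.74) and was not called under prednisolone (0.13, edgeR adjusted p = 0.0805). XBP1 fell by 0.49 under dexamethasone and was not called under prednisolone (edgeR adjusted p = 0.965). Its untreated means were 793 CPM in the dexamethasone set and 605 CPM in the prednisolone set. The treated means of XBP1 were 579 and 616 CPM, so the sets differed mainly in their untreated level. STAB1 rose to a mean of 11.5 CPM from 0.247 CPM with prednisolone, and to 128 CPM from 0.140 CPM with dexamethasone.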

How the data were processed

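Total RNA of Nalm6 cells was sequenced in 3 libraries per group. The authors deposited raw read counts per gene, unstranded and for each strand, in a layout that matches STAR's gene count output. Per the submitters' processing notes, hg19, Bowtie2 and DESeq2 were used, with no role given. Because 52953 of 62446 gene IDs carry a suffix of records lifted to an older build, no gene coordinates of those files are given. Symbols matched 40678 IDs. Column 4 held 14.5 to 14.8 times the gene total of column 3 and was used. Its 4 rows for reads in no gene stayed out: unmapped 5.13% to 11.2% of a library, multimapping 5.47% to 5.72%, outside genes 19.2% to 22.0% and ambiguous 6.36% to 7.45%.

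Groups came from the sample titles. The labels' treatment protocol leaves out dexamethasone, and it and the series' design text differ on which line received prednisolone and which CHIR-99021; titles and per-sample treatment labels were followed. The fit used the 2 dexamethasone groups only, in edgeR 4.0.16 under R 4.3.3. Low genes were removed by filterByExpr, scaling was by TMM, and the quasi-likelihood F test was adjusted by Benjamini-Hochberg over all genes tested, with calls at an adjusted p under 0.05. Standard errors derive from the F statistic. Every adjusted p in the text is edgeR's unless DESeq2 (1.42.0) is named. The prednisolone groups were fitted the same way. The fit was tested on simulated counts. Replicate pairs all differed by more than sampling noise and none were merged. No molecular identifiers are described, so limits cover counting error alone.

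The samples and the 47 gene lists, including 6 of cell type markers, were chosen with earlier results of these data known, so a list's direction is not independent evidence. Lists are described by their counts and medians, without a set test. BOP1, CD24, PECAM1 and TRBC1 were not analysed here. Some list members that count in the totals are not reported here by name. Genes named are the 12 largest rises and 12 largest falls (average log2 CPM of at least 2, with a symbol, no overlap), the 8 largest gains and losses in mean CPM, up to 6 members per list with the largest change plus up to 3 that moved against its majority, and a fixed set around NR3C1, BCL2L11, MYC, LEF1 and TLE1. Promoters are RefSeq's on GRCh38.p14, matched by symbol. Alternatives were RLE size factors, DESeq2, no low-count filter, a minimum of 10 counts in all libraries, edgeR's robust moderation, a block for the replicate number, unstranded counts, each library left out, and genes left out whose mean CPM in CEM is at least 5 times that in Nalm6.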

Additional observations from a re-analysis of the deposited data

How the results depend on the processing

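With other settings the number of genes changed by dexamethasone stayed within 1.5 times of 10412: 10392 with RLE size factors, 9283 with DESeq2, 11049 with no filter, 9628 with at least 10 counts in every library, 10978 in the unstranded column and 9990 without genes enriched in CEM. Leaving out 1 library gave 9531 to 10734 genes, 10734 without untreated replicate 1, of which 9834 were also called with all libraries. At least 2-fold changes numbered 1931, and 1177 with at least 10 counts in every library, which tests 15150 genes and removes those at 0 in untreated cells. Leaving out 1 library gave 1985 to 2115. Prednisolone calls ran from 8862 to 10581. The CEM trace in untreated replicate 1 was 0.107% of the CEM level, and 0.0905% over genes at 5 CPM or more in CEM and 0 counts in separate untreated Nalm6 libraries. With the replicate number as a replicate block, 10123 genes were called. Deviations of same-numbered libraries from their group means had correlations of -0.08, -0.01 and -0.01. Deviations within groups of 3 constrain each other, so these values cannot decide whether same-numbered libraries were handled together. Of 321 named genes that were called, 306 kept the call and direction in every alternative run, and none of these called genes changed sign. Some medians near 0 changed sign in at least 1 alternative. They included those of class I genes, cytosolic ribosomal proteins, and histone and DNA modifiers. Those of CDK inhibitors and pocket proteins and of AP-1 and immediate early genes did so as well. Besides those given in the report, calls of RPL24, RPL8, RPS27, CTSS, ATP6V1H, BCL11B, NKG7 and KLF15 were lost in at least 1 alternative, the change of KLF15 being the largest of these at -0.69. The log2 fold change of NKG7 was 0.36, and 0.18 without untreated replicate 1 (edgeR adjusted p = 0.158). Depth limits genes under 0.0923 CPM in the shallowest untreated library, whose fitted fold changes depend on the prior count.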

Other observations

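Some transcripts outside the described groups also moved. Of 11 myeloid markers only MPO and LYZ passed the filter on low counts, and both fell by 3.51 ± 0.25 and 2.28 ± 0.13 on the log2 scale (edgeR adjusted p = 1.95e-08 and 1.4e-09). MPO, which encodes myeloperoxidase, was at 1.67, 2.15 and 1.87 CPM untreated and 0.208, 0.148 and 0.142 CPM under dexamethasone. GATA3, a transcription factor best known in T cells, rose from 6.32, 7.35 and 8.93 CPM to 24.4, 23.6 and 22.5 CPM (1.61 ± 0.09), untreated replicate 1 being the lowest of the 6 libraries, and CD247, the zeta chain of the T-cell receptor, rose by 1.64 ± 0.18. TRAC, the constant region of the T-cell receptor alpha chain, fell by 1.85 ± 0.13 and the kinase gene LCK by 0.92 ± 0.06.

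Metallothioneins and calcium entry genes split within their families. MT1H, from 126, 120 and 115 CPM to 49.9, 52.5 and 51.1 CPM, and MT1G, from 171, 171 and 173 CPM to 83.7, 84.5 and 81.7 CPM, fell (-1.27 ± 0.05 and -1.08 ± 0.04), while MT2A and MT1F (0.76 ± 0.07) rose. These genes are near-identical in sequence, and how reads were shared between them was not tested. Of the 2 calcium sensors of the endoplasmic reticulum, STIM1 rose from 12.8, 13.4 and 14 CPM to 40.2, 39.9 and 39.2 CPM (1.54 ± 0.05) and STIM2 fell from 161, 164 and 166 CPM to 78.0, 75.3 and 76.9 CPM (-1.13 ± 0.04). ORAI2, a calcium channel they open, rose by 1.13 ± 0.05.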
